A study of Mus musculus with 6 samples.

Results

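The genes described here encode the enzymes and regulators of de novo lipogenesis, the making of fatty acids from sugar-derived carbon. They were chosen by symbol from the count table: Fasn, Acaca, Acly, Scd1, Scd2, Elovl6, Me1, Srebf1, Mlxipl and Thrsp, 10 of its 54532 gene identifiers, and all 10 passed the filter on low counts. The tissue sequenced was epididymal white adipose tissue (eWAT), an abdominal fat depot, from mice fed a high-fat diet for 16 weeks. The knockout group carried floxed PD-1 alleles and Lyz2-Cre (PD-1fl/fl Lyz2-Cre, labelled Myeloid-specific PD-1 KO), and the control group were littermates with the same floxed alleles and no Cre (PD-1fl/fl), so both groups carry the floxed gene and both received the diet. The Pdcd1 gene encodes PD-1, a receptor that restrains immune cells. Lyz2-Cre acts in macrophages and other myeloid cells, not in adipocytes, where lipogenesis takes place in fat. Each group held 3 libraries. Ages are not in the labels, nor whether every library is a separate mouse, and p-values therefore measure only how much these libraries spread.

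In lipogenesis, ATP citrate lyase (Acly) makes acetyl-CoA from citrate, acetyl-CoA carboxylase (Acaca) makes malonyl-CoA from it, and fatty acid synthase (Fasn) builds palmitate with NADPH that malic enzyme (Me1) helps to supply. Elovl6 lengthens the product and the stearoyl-CoA desaturases Scd1 and Scd2 introduce a double bond. The transcription factors SREBP-1 (Srebf1) and ChREBP (Mlxipl) switch these enzymes on after feeding, and Thrsp encodes a small nuclear protein known to promote lipogenesis in fat and liver.

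The library totals were 22813206 to 25441746 counts in knockouts and 20108185 to 27225533 counts in controls. By its markers, control replicate 2 resembled liver and not fat. Alb, which encodes albumin and is a hepatocyte gene, accounted for 0.000483% to 0.0817% of counts in knockouts, and for 0.000724%, 8.27% and 0.436% in control replicates 1, 2 and 3. Adipoq, the gene of the fat hormone adiponectin, had 1205, 817 and 2614 CPM in knockouts and 3649, 11.2 and 1719 CPM in controls. CPM here is a count scaled to library size, with TMM scaling, which assumes that most genes do not change. The summed level of the 14 adipocyte markers was 25875 to 59226 CPM in knockouts and 1390 to 66785 CPM in controls, with none at 0 in any library. The 15 hepatocyte markers found summed to 213 to 2273 CPM in knockouts and 8217 to 249321 CPM in controls. That list includes Cyp2e1, which made up most of the sum in control replicate 1, where Fgb, Fga and Cps1 were at 0 counts, while Cps1 and G6pc were at 0 in knockout replicate 1. The 12 macrophage markers summed to 1264 to 5333 CPM in knockouts and 522 to 1124 CPM in controls, with none at 0. In whole tissue, fewer cells of a type and less RNA per cell cannot be told apart. Pdcd1 itself had 19, 19 and 5 counts in knockouts and 13, 0 and 0 counts in controls, too few to check the deletion in myeloid cells of a tissue that also holds T cells. Liver is itself a lipogenic organ, so the levels of the 10 genes are given by library, and edgeR fold changes also without control replicate 2. The fits without it still hold control replicate 3 and knockout replicate 2, which had more Alb than the 3 remaining libraries.

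**Figure D1:**
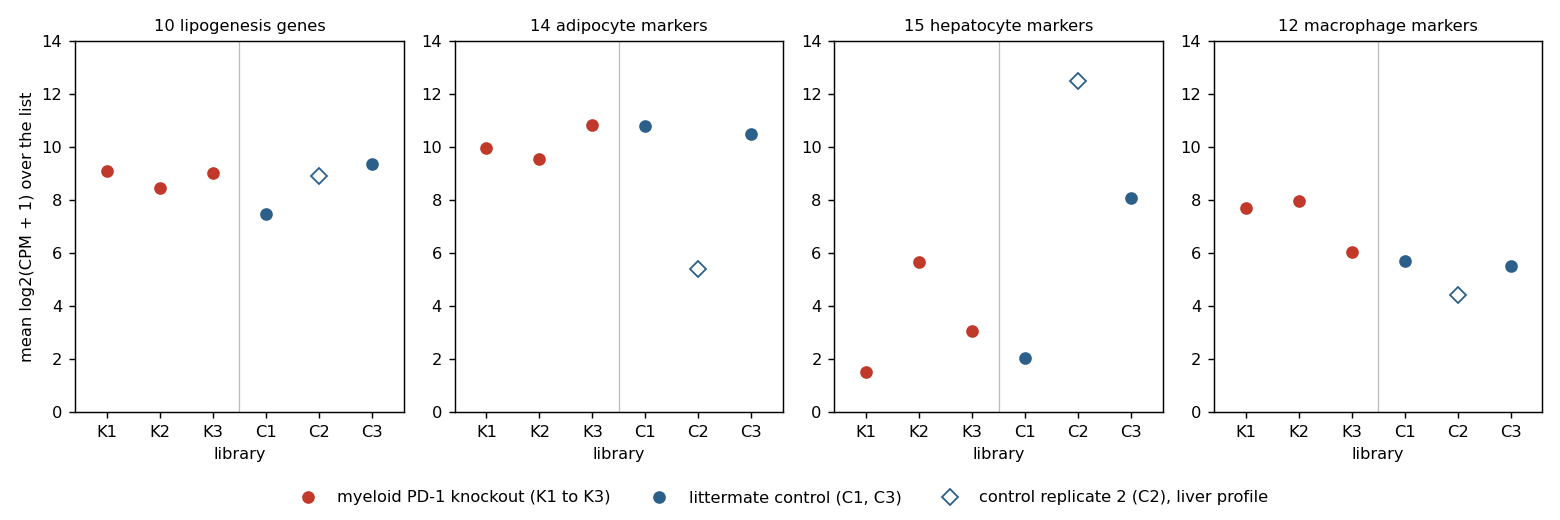
Mean log2(CPM + 1) over 4 gene lists (vertical axis) in each library (horizontal axis; K, knockout; C, control), with 1 point per library and no error bar. Control replicate 2 (open diamond) stood at 5.41 for adipocyte and 12.5 for hepatocyte markers, while the 10 lipogenesis genes averaged 8.92 there, between 8.45 and 9.11 in knockouts and at 7.50 and 9.37 in control replicates 1 and 3.

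None of the 10 genes separated the 2 groups. Control replicates 1 and 3, both fat by their adipocyte markers, lay far apart from each other, and the groups overlapped at each of the 10. Over the 10 genes the median log2 ratio of control replicate 3 to control replicate 1 was 1.54, against 0.06 over all 15928 genes tested (on log2(CPM + 1)). Of the 10 genes, 7 were at least 2-fold higher in control replicate 3 than in control replicate 1, against 16.9% of all genes tested. For 6 genes (Fasn, Acly, Scd2, Elovl6, Me1 and Srebf1) control replicate 1 was the lowest of the 5 libraries other than control replicate 2, which held for 29.9% of all genes. Control replicate 3 was the highest of the 5 for 4 genes (Scd1, Fasn, Acaca and Mlxipl), against 23.6% of all genes, and lay within or above the knockout range for 10 of 10, against 73.4%. These counts describe the libraries and were not tested.

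Acly and Elovl6 followed Fasn most closely of the 10 genes across these 5 libraries, at ranks 16 and 54 among 12326 genes by distance between centred log2(CPM + 1) profiles. Over all 6 libraries Acly was at rank 247, while Elovl6, at rank 11227, was the farthest of these genes from Fasn. The promoter windows of Fasn, Acly and Elovl6, 250 bases before to 50 after the RefSeq start on GRCm38.p6, are shown. They are those of Fasn and of the 2 other members nearest to it over the 5 libraries. Capitals mark matches on either strand to CCAAT (the CCAAT box, read ATTGG on the other strand) and GGGCGG (the GC box, CCGCCC on the other strand).
Fasn (chr11:120824498-120824797, minus strand): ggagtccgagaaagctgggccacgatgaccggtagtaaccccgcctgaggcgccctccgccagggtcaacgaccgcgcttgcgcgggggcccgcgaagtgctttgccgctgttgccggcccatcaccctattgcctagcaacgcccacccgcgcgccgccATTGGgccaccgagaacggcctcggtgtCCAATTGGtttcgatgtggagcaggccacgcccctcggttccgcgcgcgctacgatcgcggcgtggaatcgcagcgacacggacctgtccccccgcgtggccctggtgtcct
Acly (chr11:100527951-100528250, minus strand): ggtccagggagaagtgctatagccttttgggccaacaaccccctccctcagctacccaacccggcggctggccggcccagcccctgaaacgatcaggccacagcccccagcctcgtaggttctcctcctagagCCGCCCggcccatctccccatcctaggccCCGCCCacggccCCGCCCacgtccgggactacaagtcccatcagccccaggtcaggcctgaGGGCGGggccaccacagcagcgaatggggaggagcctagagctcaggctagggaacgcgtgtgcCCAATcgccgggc
Elovl6 (chr3:129532136-129532435, plus strand): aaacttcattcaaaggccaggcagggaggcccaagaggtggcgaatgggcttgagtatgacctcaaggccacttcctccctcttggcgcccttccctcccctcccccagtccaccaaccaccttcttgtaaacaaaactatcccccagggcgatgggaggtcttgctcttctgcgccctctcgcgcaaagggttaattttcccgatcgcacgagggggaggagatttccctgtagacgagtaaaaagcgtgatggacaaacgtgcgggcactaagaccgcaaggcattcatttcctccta
The Fasn window held 3 CCAAT boxes, 90, 62 and 59 bases before the start, and the last 2 of these overlap on opposite strands. The Acly window held 4 GC boxes and 1 CCAAT box, and the Elovl6 window held neither. Of 32851 RefSeq promoter windows of this length, 37.4% held CCAAT and 35.7% held GGGCGG. Windows were available for 8 of the 10 genes (not for Scd1 and Scd2), 12 windows in all, since some genes have several starts. CCAAT was in 7 of the 12 windows (6 genes) and GGGCGG in 5 of the 12 (4 genes). The string TCACNCCAC, 1 form of the sterol regulatory element that SREBP proteins bind, was found at a start of Mlxipl alone among the 8. It was in 1.24% of all windows. The E-box CACGTG, part of the element ChREBP binds, was likewise found only in a window of Mlxipl, and in 7.15% of all windows. A match is a run of letters, not a shown binding site. Sites spelled otherwise were not searched for, so a window without a match may still hold a site.

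**Figure D2:**
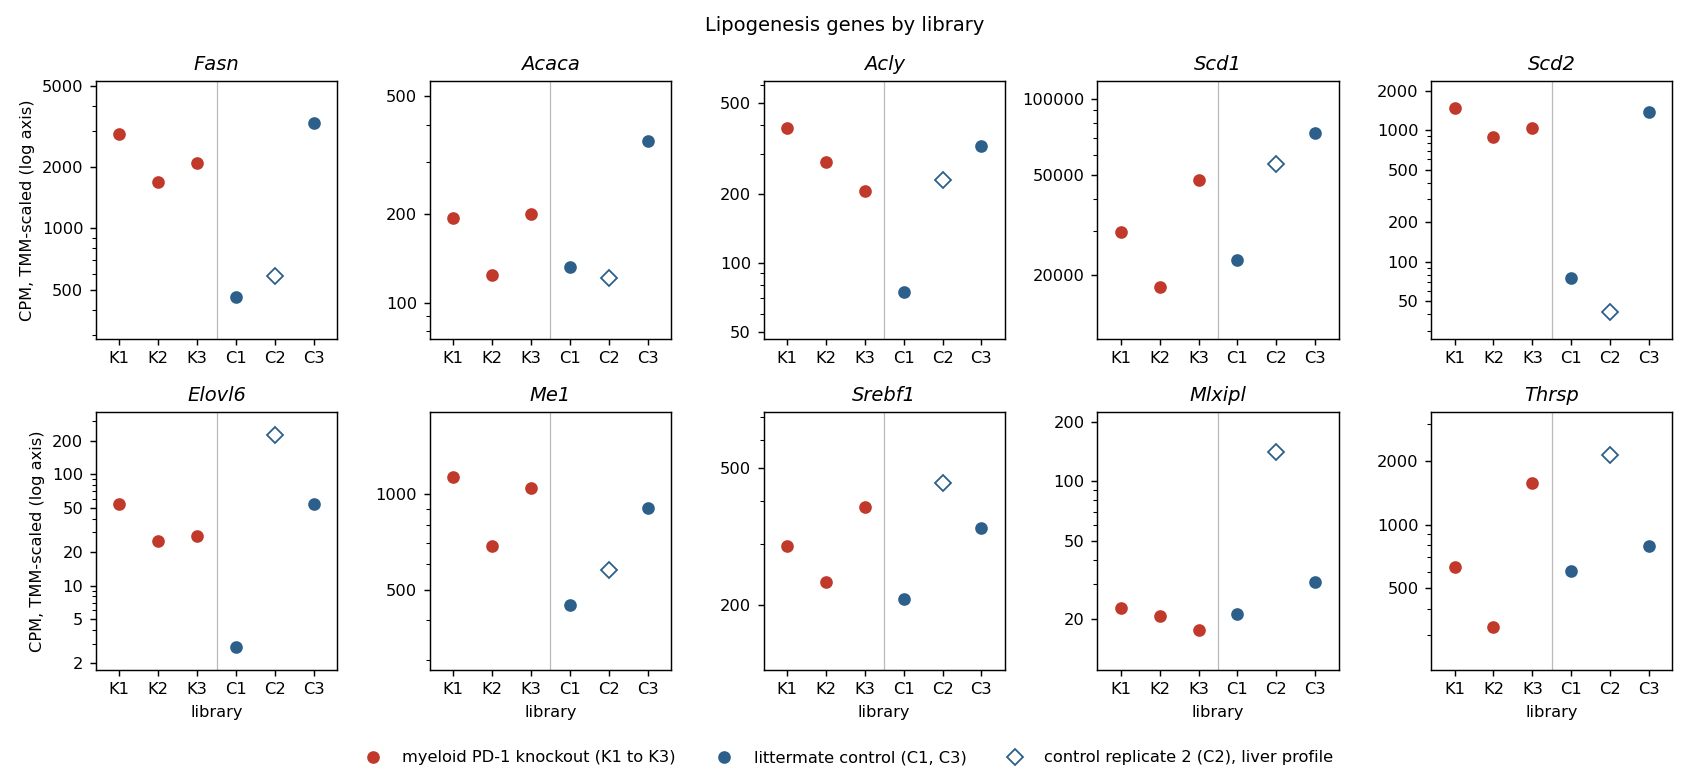
Level of each of the 10 lipogenesis genes (vertical axis, TMM-scaled CPM on a log axis with its own range per gene) in each library (horizontal axis; knockouts K1 to K3 left, controls C1 to C3 right). Each point is 1 library. Control replicate 1 is the lowest of the filled points for 6 genes, and control replicate 3 lies within or above the knockout range for all 10.

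Among the carbon-flow enzymes, Fasn (chromosome 11, 120805846 to 120824547, mm10) had 2891, 1689 and 2090.4 CPM in knockout replicates 1 to 3, against 461, 583 and 3296 CPM in control replicates 1 to 3. Its knockouts lay together, with a highest value 1.71 times the lowest, while the controls spanned 7.14-fold and held both the lowest and the highest library. Means were 2223 ± 612 CPM in knockouts and 1447 ± 1603 CPM in controls (SD, n = 3 each). Knockouts over controls, the log2 fold change came to 0.62 ± 0.89 (SE; all 6 libraries, edgeR adjusted p 0.879) and to 0.26 ± 0.79 without control replicate 2 (0.937). It stood at 2.28 ± 0.56 (adjusted p 0.27) against control replicate 1 alone and at −0.54 ± 0.43 (0.733) against control replicate 3 alone. These single-control fits take the lone control to vary as the knockouts do.

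Acly (chromosome 11, 100476353 to 100528000) had 389, 274 and 205 CPM in knockouts, against 74.7, 231 and 322 CPM in controls. Control replicate 1 alone lay outside the knockout range. Acly's log2 fold change was 0.47 ± 0.60 (edgeR adjusted p 0.858), 0.56 ± 0.64 without control replicate 2, 1.97 ± 0.51 against control replicate 1 alone and −0.12 ± 0.44 against control replicate 3 alone. Acaca (chromosome 11, 84129672 to 84401651), the carboxylase that makes malonyl-CoA for synthesis, had 193, 124 and 199.9 CPM in knockouts, against 132, 121 and 351 CPM in controls. Control replicate 3 was the high library, and control replicate 1 lay within the knockout range, unlike for Fasn and Acly. Its log2 fold change was −0.23 ± 0.53 (adjusted p 0.933), −0.48 ± 0.46 without control replicate 2 and 0.45 ± 0.38 without control replicate 3.

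Me1 (chromosome 9, 86581371 to 86695953), the cytosolic malic enzyme, had 1132, 684 and 1041 CPM in knockouts, against 447, 576 and 905 CPM in controls. Knockout replicate 2 was below control replicate 3, so the groups overlapped. Me1 was the only one of the 10 genes with a positive log2 fold change in every fit run, 0.10 to 1.11, at 0.57 ± 0.50 with all 6 libraries (edgeR adjusted p 0.77) and 0.50 ± 0.43 without control replicate 2 (0.749).

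Scd1 (chromosome 19, 44394455 to 44407879), the main desaturase of fat and liver, ranked 1, 2 and 1 of all genes by FPKM (a level scaled to gene length and library size) in knockouts and 12, 13 and 1 in controls. It had 29709.7, 17942 and 47509 CPM in knockouts, against 22958, 55124 and 73458 CPM in controls. Knockout replicate 2 was lowest and control replicate 3 highest, and the groups overlapped. The gene alone took 2.24% to 5.09% of all counts in knockouts and 2.25% to 8.26% in controls (control replicate 3, 95% exact Clopper-Pearson interval 8.25% to 8.27%, counting error only). Its log2 fold change was −0.67 ± 0.91 (edgeR adjusted p 0.871) and −0.59 ± 0.71 without control replicate 2 (0.824). It was 0.48 ± 0.77 against control replicate 1 alone.

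Scd2 (chromosome 19, 44293674 to 44306864), the desaturase paralogue beside it, had 1476, 895 and 1046 CPM in knockouts, against 75.2, 41.8 and 1373 CPM in controls. Control replicates 1 and 2 were far below every knockout, and control replicate 3 was level with them. The knockouts spanned 1.65-fold and the controls 32.9-fold, with means of 1139 ± 301 CPM and 497 ± 759 CPM (SD, n = 3 each). The 8 progenitor and fibroblast markers had their lowest sums in the same libraries, with none at 0. The sums were 3149, 7400.3 and 1884 CPM in knockouts and 1148, 347 and 1980.2 CPM in controls. In control replicate 1, Pdgfra, Col1a1, Col3a1, Pi16, Lum and Cd34 were below every knockout. Dcn (773 CPM) and Dpt (215 CPM) lay within the knockout range there. The part of these markers in the Scd2 values was not tested. Scd2's log2 fold change was 1.20 ± 1.31 (edgeR adjusted p 0.827), 0.67 ± 1.04 without control replicate 2 (0.865), and −0.24 ± 0.41 against control replicate 3 alone (0.889). Without control replicate 3 it was 4.29 ± 0.66, at an adjusted p of 0.355, and no gene was called in that fit. Its controls were only control replicate 1 and control replicate 2, which resembled liver, at 75.2 and 41.8 CPM. That value is therefore not a comparison within fat. Per length and within a library, Scd1 FPKM were 22.7, 22.6 and 51.2 times Scd2 FPKM in knockouts, and 344, 1488 and 60.3 times in controls. Control replicate 1, a fat library, thus had a low Scd2 level beside an Scd1 level within the knockout range. Reads of the 2 paralogues may be shared, since how reads with several matches were counted is not stated.

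**Figure D3:**
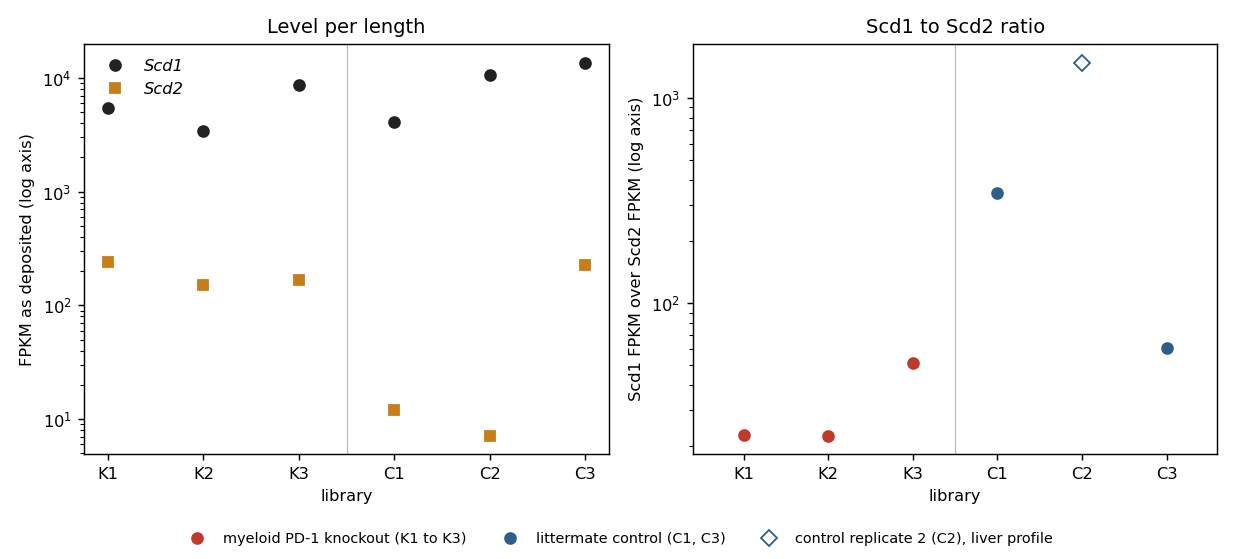
Left, FPKM of Scd1 and Scd2 as deposited (log axis) by library, to be compared within a library only. Right, the ratio of Scd1 to Scd2 FPKM (log axis), 22.6 to 51.2 in the 3 knockouts and 344, 1488 and 60.3 in control replicates 1 to 3; each point is 1 library.

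Elovl6 (chromosome 3, 129532355 to 129638495), which lengthens palmitate to stearate, had 54.6, 24.9 and 28.1 CPM in knockouts, against 2.81, 225 and 54.4 CPM in controls. The liver-profile library was highest and control replicate 1 lowest (75 counts), so the controls spanned 80.2-fold and enclosed every knockout. For Elovl6 the log2 fold change was −1.39 ± 1.26 with all 6 libraries (edgeR adjusted p 0.774) and turned to 0.35 ± 1.08 without control replicate 2 (0.939). Against control replicate 1 alone it was 3.69 ± 0.67 (0.261), and against control replicate 3 alone −0.57 ± 0.49 (0.746). Gm35986, antisense to Elovl6, had 149 counts over the 6 libraries, against 7182 for Elovl6.

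Among the regulators, Srebf1 (chromosome 11, 60199089 to 60222581) had 297, 234 and 385 CPM in knockouts, against 208, 453 and 335 CPM in controls. The range of its 6 libraries was narrow beside those of Fasn and Scd2, with control replicate 1 lowest and control replicate 2 highest. Its log2 fold change was −0.12 ± 0.45 (edgeR adjusted p 0.964) and 0.18 ± 0.35 without control replicate 2 (0.893). Rai1 overlaps Srebf1 on the opposite strand, with 2165 counts over the 6 libraries against 45454 for Srebf1, and without a stated strand setting reads of the pair cannot be told apart. Mlxipl (chromosome 5, 135089890 to 135138382) had 22.8, 20.6 and 17.7 CPM in knockouts, against 21.1, 140.4 and 30.7 CPM in controls. The liver-profile library stood at 6.65 times the median of the 5 other libraries, and those 5 lay within 17.7 to 30.7 CPM. Its log2 fold change was −1.65 ± 0.74 (edgeR adjusted p 0.56) with all 6 libraries and −0.33 ± 0.26 (0.734) without control replicate 2.

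Thrsp (chromosome 7, 97412938 to 97417730) had 630, 329 and 1569 CPM in knockouts, against 604, 2131 and 796 CPM in controls. It was the gene with the widest span among the knockouts, 4.77-fold, and its high knockout was replicate 3, the library with the most adipocyte transcripts of the 3. For Thrsp the log2 fold change was −0.48 ± 0.81 (edgeR adjusted p 0.897) and 0.27 ± 0.66 without control replicate 2 (0.92). By CPM Thrsp was not low in control replicate 1, where Fasn and Scd2 were.

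Per length, the 10 genes kept much the same order in the 3 knockouts and control replicate 3: Scd1 first, then Me1, Thrsp, Scd2 and Fasn in changing order, then Acly and Srebf1, then Acaca, Elovl6 and Mlxipl. In control replicate 1 Scd2 was seventh and Elovl6 last, at 11.97 and 0.379 FPKM. In control replicate 2 Elovl6 (32.8 FPKM) and Mlxipl (23.7 FPKM) were above Scd2 (7.17 FPKM) and Acaca (6.63 FPKM).

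By edgeR's quasi-likelihood test with Benjamini-Hochberg adjustment over all genes, 0 of the 10 genes passed an adjusted p of 0.05, as did 0% of all 15928 genes tested, and 0 of the 10 were under an unadjusted p of 0.05, against 8.65% of all genes. DESeq2 called 0 of the 10 (2.02% of all genes it tested), with Mlxipl alone at an unadjusted p under 0.05 (knockout lower, as for 5.15% of all genes) and no p given for Scd2, and limma-voom called 0. Without control replicate 2, edgeR called 0 of the 10 (0% of 16729 genes) and 0 were under an unadjusted p of 0.05 (8.96% of all genes), while DESeq2 called 0 of the 10 and 1.83% of all genes. No gene of the 10 had every knockout above every control or every knockout below every control, patterns held by 9.54% and 5.61% of all genes. The median log2 fold change of the 10 was −0.17, against −0.03 over all genes tested. It was 0.26 without control replicate 2 (all genes −0.04), 0.84 against control replicate 1 alone (all genes 0.06) and −0.39 against control replicate 3 alone (all genes 0.05). Against control replicate 1 alone 9 of 10 fold changes were above 0, and 4 (Fasn, Acly, Scd2 and Elovl6) were higher at an unadjusted p under 0.05, against 8.9% of all genes. Against control replicate 3 alone 2 of 10 were above 0, and 1 (Acaca) was lower at an unadjusted p under 0.05, against 4.13% of all genes. A p that misses the threshold does not show that the groups were alike at these genes.

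**Figure D4:**
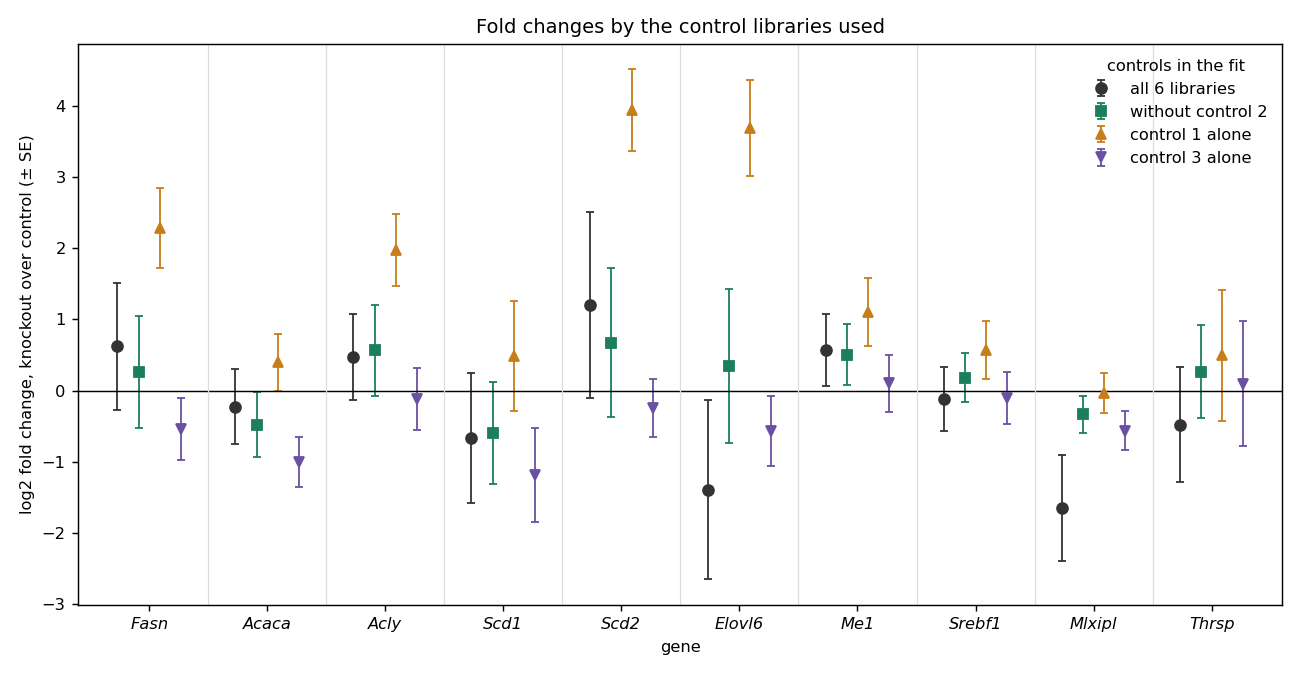
Log2 fold change, knockout over control, with SE bars (vertical axis), for each gene (horizontal axis) under 4 choices of control libraries, from edgeR. Against control replicate 1 alone Scd2 and Elovl6 stand at 3.94 and 3.69, and against control replicate 3 alone at −0.24 and −0.57.

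The adipocyte share of the RNA also differed among libraries, so the genes were set against the geometric mean of the 14 adipocyte markers in the 5 libraries other than control replicate 2. Fasn counts were 291%, 222% and 115% of that mean in knockouts, and 25.9% and 229% in control replicates 1 and 3. Scd2 counts were 149%, 118% and 57.3% in knockouts, and 4.21% and 95.5% in control replicates 1 and 3. For both genes control replicate 1 was again the lowest of the 5. On this scale the same held for each of the 10 genes but Mlxipl. It thus held for Acaca (7.40%), Scd1 (1286%) and Thrsp (33.8%), which by CPM were lowest in knockout replicate 2. The share of all genes lowest in control replicate 1 on this scale was not computed, so the count is not particular to these genes. The scale raised fold changes broadly: 8 of the 10 genes and 81% of all genes tested had a log2 fold change above 0. Control replicate 3 was within the knockout range for Fasn and Scd2 on this scale, whereas by CPM it was above every knockout for Fasn. On this scale the median log2 fold change of the 10 genes was 0.68, but that of all genes tested was 0.54, and no gene was called. The summed macrophage markers did not overlap between groups, at 4472, 5333 and 1264 CPM in knockouts and 1124, 522 and 968 CPM in controls. Their part in the values of the 10 genes was not tested.

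Of 48 other lipogenesis genes in 4 lists, 45 were tested and 0 were called by edgeR. In the list for acetyl-CoA and malonyl-CoA supply, 0 of 8 were called and the median log2 fold change was −0.51. Acacb, the carboxylase whose malonyl-CoA restrains fatty acid oxidation in mitochondria, had 73.1, 56.1 and 140.1 CPM in knockouts, against 280.1, 149.8 and 129 CPM in controls. Unlike its paralogue Acaca, it was highest in control replicate 1, and the ratio of Acaca to Acacb FPKM was 1.49, 1.24 and 0.805 in knockouts and 0.266, 0.455 and 1.54 in controls. Its log2 fold change was −1.05 ± 0.51 (edgeR adjusted p 0.567), and −1.19 ± 0.50 without control replicate 2 (0.563). Mpc1, a subunit of the mitochondrial pyruvate carrier, Pdha1, a subunit of pyruvate dehydrogenase, and Mcat, a malonyltransferase of mitochondria, had log2 fold changes of −0.82 ± 0.46, −0.52 ± 0.32 and −0.61 ± 0.40. Without control replicate 2 these were −0.57 ± 0.44 for Mpc1, −0.53 ± 0.27 for Pdha1 and −0.35 ± 0.37 for Mcat. Pdha1 had 134, 101 and 153 CPM in knockouts, against 206, 180.4 and 169 CPM in controls. Its knockouts were all below every control, a pattern held by 5.61% of all genes tested.

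In the NADPH list 0 of 6 were called, with a median of 0.06. Tkt (transketolase) had 403, 383 and 473 CPM in knockouts, against 231, 203 and 364 CPM in controls, with every knockout above every control (log2 fold change 0.66 ± 0.40, edgeR adjusted p 0.656, and 0.51 ± 0.31 without control replicate 2). Pgd, an NADPH-making enzyme of the pentose phosphate pathway, had 559, 446 and 587 CPM in knockouts, against 406, 61.8 and 415 CPM in controls, also without overlap (0.85 ± 0.73, adjusted p 0.759, and 0.38 ± 0.28 without control replicate 2). That pattern was held by 9.54% of all genes tested. Idh1, the cytosolic isocitrate dehydrogenase, had 344, 298 and 295 CPM in knockouts, against 199, 1056 and 308 CPM in controls, with the liver-profile library far above the rest. The fold change of Idh1 (log2) was −0.74 ± 0.69 (edgeR adjusted p 0.783) and turned to 0.31 ± 0.30 without control replicate 2 (0.774). For Pgls, the lactonase of the same pathway as Pgd, it was −0.24 ± 0.44, and −0.07 ± 0.44 without control replicate 2.

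In the elongation and desaturation list 14 of 17 were tested (Elovl4, Elovl7 and Scd4 were below the filter), 0 were called by edgeR and the median log2 fold change was −1.496 with all libraries and −0.42 without control replicate 2. Fads1, the delta-5 desaturase of polyunsaturated fatty acids, had 47.7, 61.4 and 52.7 CPM in knockouts, against 68.4, 1237 and 161 CPM in controls. Every knockout was below every control, as for 5.61% of all genes tested. Among controls the order of Fads1 was that of the hepatocyte markers, whose mean log2(CPM + 1) was 1.52, 5.67 and 3.09 in knockouts and 2.07, 12.5 and 8.10 in controls, and their part in the values was not tested. Its log2 fold change was −3.18 ± 1.11 (edgeR adjusted p 0.56), and −1.07 ± 0.39 (0.54) without control replicate 2. Fads2, the delta-6 desaturase, had 6.50, 9.93 and 5.2003 CPM in knockouts, against 2.66, 657 and 43.9 CPM in controls. Elovl3, an elongase of very long chains, had 14, 73 and 5 counts in knockouts, against 54, 2294 and 322 counts in controls, and Fads6 118, 173 and 25 counts against 64, 1198 and 268 counts. DESeq2 called Fads1, Fads2 and Elovl3 lower with all 6 libraries (adjusted p 0.0454, 0.0141 and 0.00447) and none of them without control replicate 2 (0.211, 0.442 and 0.212).

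In the list of regulators 0 of 17 were called by edgeR and the median was 0.01. Pklr (liver-type pyruvate kinase) had 0, 58 and 6 counts in knockouts, against 3, 2837 and 584 counts in controls. Its high libraries were control replicates 2 and 3, those with the most Alb. Insig2, a membrane protein that holds SREBP proteins back, had 61.5, 47.2 and 103.1 CPM in knockouts, against 102.9, 539 and 119.6 CPM in controls, and Mlx, the dimer partner of ChREBP, 17.3, 16.6 and 13.1 CPM against 19.3, 58.4 and 18.7 CPM. Both were highest in the liver-profile library. For Mlx every knockout was below every control, a pattern held by 5.61% of all genes tested. The log2 fold change of Insig2 was −1.85 ± 0.76 with all 6 libraries and −0.65 ± 0.36 without control replicate 2 (edgeR adjusted p 0.56 and 0.626). That of Mlx was −1.03 ± 0.52 with all 6 libraries and −0.26 ± 0.25 without control replicate 2 (0.577 and 0.772).

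**Figure D5:**
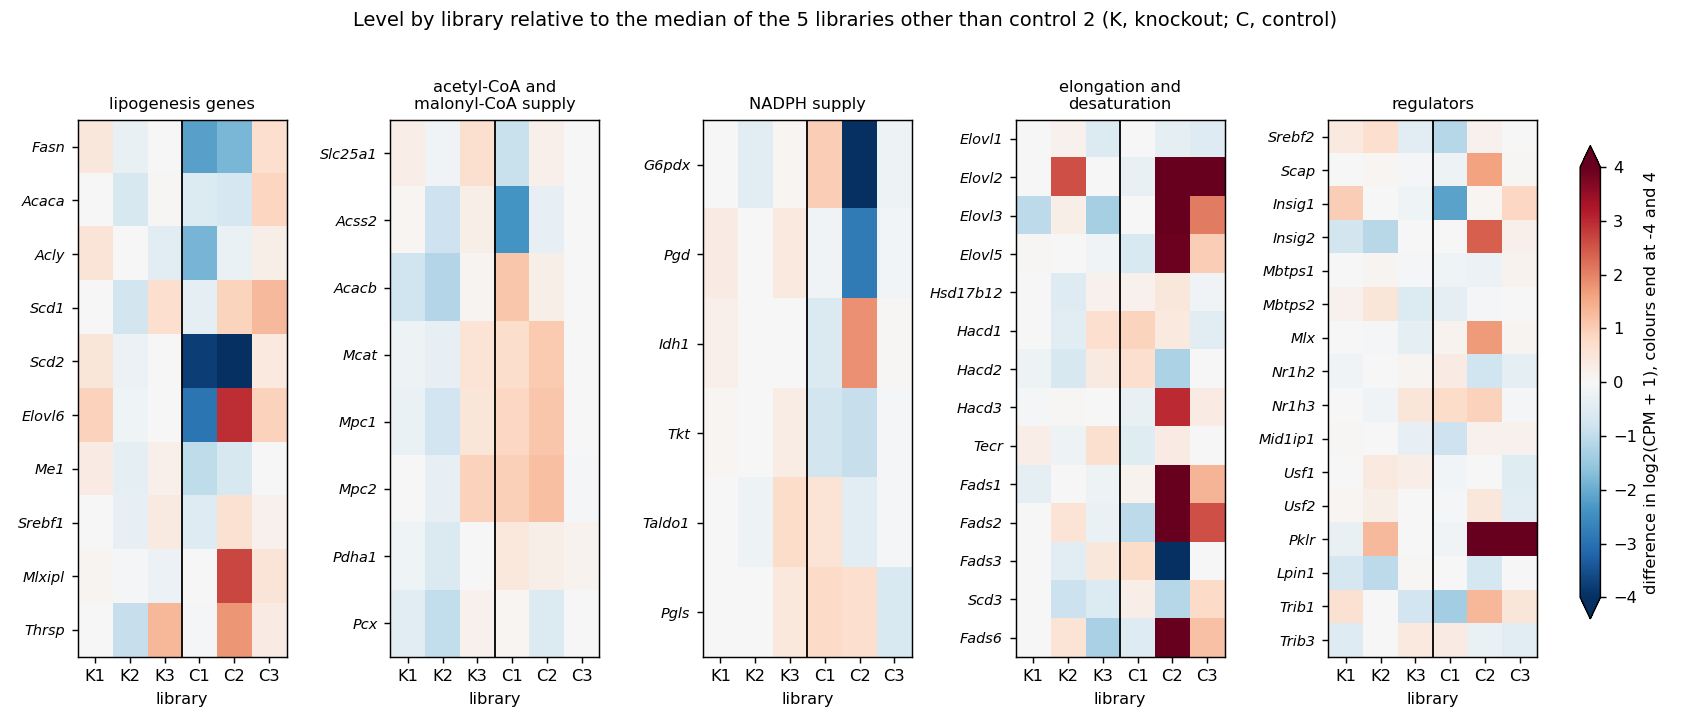
Level of each tested gene but 1 regulator (rows) in each library (columns; K, knockout; C, control) as the difference in log2(CPM + 1) from its median over the 5 libraries other than control replicate 2, for the 10 lipogenesis genes and the 4 other lists. Colours are capped at differences of 4 in either direction; column C1 is blue at Fasn, Acly, Scd2, Elovl6, Acss2 and Insig1 and red at Acacb and G6pdx.

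The genes nearest to Fasn in pattern were found by root mean square distance between centred log2(CPM + 1) profiles. Over all 6 libraries they were Rgs5 (0.198), Plxna3 (0.333), Samd12 (0.378), Mcph1 (0.413) and Eda2r (0.423). Over the 5 libraries without control replicate 2 they were Rgs5 (0.212), Wscd2 (0.215), Insig1 (0.230), Pnpla3 (0.232) and Map1a (0.264). Rgs5, a regulator of G protein signalling, had 250.2, 214 and 263 CPM in knockouts, against 57.3, 70.9 and 358 CPM in controls. Insig1, which like Insig2 retains SREBP proteins, had 523, 266 and 237 CPM in knockouts, against 58.9, 278 and 473 CPM in controls. Pnpla3, a lipid-droplet protein, had 158, 105 and 183 CPM in knockouts, against 33.0, 9.84 and 205 CPM in controls. The distances are a description over few libraries that share the same scaling.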

How the data were processed

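The 6 libraries, 3 knockout and 3 control, are bulk RNA sequencing of whole fat tissue, made from purified mRNA per the labels' protocols. Replicates are numbered by sample record; control replicate 2 is the library titled HF_7690_eWAT. Per the submitters' processing notes, the tools were featureCounts 1.5.0-p3, StringTie 1.3.3b, HISAT2 2.0.5 and fastp, on build mm10. The strand setting was not given in the sources used here, nor were the annotation release and the treatment of multiply matching reads. The authors deposited raw counts per gene, used for all main tests, and FPKM values, used for levels per length within a library and for alternatives. Symbols were matched for 54409 of 54532 identifiers, and 125 listed genes in 12 lists were looked up, of which 124 were found. Coordinates are those of GENCODE vM21 (GRCm38, the assembly of mm10), and promoters those of RefSeq on GRCm38.p6.

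Genes kept by filterByExpr went into robust quasi-likelihood fits in edgeR 4.0.16 under R 4.3.3, with the Benjamini-Hochberg threshold at 0.05. TMM factors were 0.982 to 1.25, except 0.559 in control replicate 2. SE is the log2 fold change over the root of F. Alternatives were DESeq2 1.42.0, limma 3.58.1 with voom or on log2(FPKM + 1) and log2(FPKM + 0.1), other filters and scalings, and libraries left out. Procedures were checked on simulated counts. Chi-square per degree of freedom between libraries of a group was 56.8 to 1112, and no libraries were merged. The smallest two-sided p of an exact permutation test at this size is 0.1. The genes and lists were chosen with earlier results of these data known. Named genes were the 10 lipogenesis genes, up to 4 per other list by smallest p (1 of them is not reported here), tissue checks, and the 5 nearest to Fasn; Acss2 and G6pdx in a caption were chosen after their values were seen. Figures were drawn with matplotlib 3.10.9.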

Additional observations from a re-analysis of the deposited data

How the results depend on the processing

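Of 170 log2 fold changes of the 10 genes under 17 alternatives, 148 kept direction and call, 22 turned sign, and none passed the threshold. With 1 library left out, values ranged from −0.48 to 0.45 for Acaca, −1.96 to 0.35 for Elovl6, −0.36 to 0.18 for Srebf1 and −1.30 to 0.27 for Thrsp, and the median of the 10 from −0.41 to 0.26, with 0 genes called each time. With limma-voom Elovl6 was 0.30. Without control replicate 2 under DESeq2, Elovl6 was 0.34, Srebf1 0.18 and Thrsp 0.27. With adipocyte marker scaling of the same 5 libraries, which moved the median of all genes to 0.54, Elovl6 was 0.80, Srebf1 0.64, Mlxipl 0.26 and Thrsp 0.53, and the median of the 10 was 0.68. Against control replicate 1 alone Acaca was 0.40, Scd1 0.48, Elovl6 3.69, Srebf1 0.57 and Thrsp 0.50, and the median 0.84. Against control replicate 3 alone, an alternative chosen after seeing the data, Fasn was −0.54, Acly −0.12, Scd2 −0.24 and Thrsp 0.10. DESeq2 called 530 genes with all 6 libraries, 2.02% of those it tested. Of the 47 other lipogenesis genes it tested, it called 4 (Fads1, Fads2 and Elovl3 among them). Without control replicate 2 it called 485 genes (1.83%), 0 of them other lipogenesis genes. Which controls enter thus sets the sign of most of these fold changes; the cause of the spread was not tested. No paired analysis was run, because the labels name no pairs between the groups. Depth did not limit the 10 genes, whose lowest count was 75 (Elovl6, control replicate 1).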

Other observations

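Ratios of FPKM within a library do not depend on the scaling between libraries. Fasn FPKM were 23.4, 21.3 and 16.3 times Acaca FPKM in knockouts, and 5.45, 7.53 and 14.6 times in control replicates 1 to 3. Every knockout ratio was above every control ratio, though 16.3 and 14.6 lay close. The share of all gene pairs with such a pattern was not computed. The smallest two-sided p an exact permutation test can give here is 0.1, and the ratio was chosen after the values were seen. Elovl6 FPKM were 0.0321, 0.0251 and 0.0228 of Fasn FPKM in knockouts, and 0.0104, 0.658 and 0.0281 in controls. Thrsp FPKM were 1.09, 0.974 and 3.75 times Fasn FPKM in knockouts, and 6.54, 18.3 and 1.21 times in controls. Srebf1 FPKM were 12.8, 11.2 and 21.5 times Mlxipl FPKM in knockouts, and 9.69, 3.17 and 10.7 times in controls. The groups did not overlap, but 11.2 and 10.7 lay close, and the same limits apply to this ratio. The ratio of Scd1 to Scd2 FPKM also did not overlap, with 51.2 the highest in knockouts and 60.3 the lowest in controls. The groups overlapped in the ratios of Acaca to Acacb, Elovl6 to Fasn and Thrsp to Fasn. Each ratio has the liver-profile library, control replicate 2, among its controls.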
